A study of Mus musculus with 4 samples.

Results

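The 10 genes described here, Cdkn2a, Cdkn2b, Cdkn1a, Cdkn1b, Ccnd1, Ccnd2, Ccnd3, Cdk4, Cdk6 and Trp53, control the passage of a cell through G1. They were chosen by name from the 23635 genes listed over the 4 matrices, and every one was listed. The cells came from tumours that grew from transplanted Py8119 cells, a mouse mammary tumour line derived from a C57BL/6 mouse carrying the MMTV-PyMT transgene. In 2 tumour libraries Sema4d, which encodes a semaphorin, was knocked down with an shRNA (Sema4d-shRNA), and 2 libraries came from control tumours, labelled NC. All 4 tumours share the Py8119 line and are described as transplanted; neither the host strain nor its age is stated in the labels. Nothing in the labels says that libraries 1 and 2 of a group came from separate mice, nor whether the knockdown line is 1 clone or a pool, so p-values measure the spread between these libraries. Tumours were dissociated with an enzyme kit at 37 °C for 30 min, red cells were lysed and droplet libraries were made with no sort recorded. Levels are given as CPM, the UMIs (unique molecular identifiers, each marking 1 captured RNA molecule) of a gene per 1000000 UMIs of the summed cells.

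As background, D-type cyclins bind Cdk4 or Cdk6 in response to growth signals, and the active kinase phosphorylates the retinoblastoma protein, which releases E2F factors to switch on the genes of S phase. INK4 proteins such as p16Ink4a, from Cdkn2a, and p15Ink4b, from Cdkn2b, bind Cdk4 and Cdk6 and block this step. The Cdkn2a locus also encodes p19Arf, which binds Mdm2 and so stabilises p53. p53, from Trp53, switches on Cdkn1a, whose product p21 inhibits cyclin-dependent kinases, as does p27Kip1 from Cdkn1b. Loss or silencing of the INK4 and Arf genes and gain of cyclin D1 are frequent in tumours.

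Cdkn2a (ENSMUSG00000044303) spans chr4:89274471-89294653 on the minus strand and Cdkn2b (ENSMUSG00000073802) spans chr4:89306299-89311039 on the same strand (GRCm38, GENCODE M21). In the same annotation the other members lie, with strand in brackets, as Cdkn1a at chr17:29090976-29100727 (plus), Cdkn1b at chr6:134920401-134925513 (plus), Ccnd1 at chr7:144929931-144939925 (minus), Ccnd2 at chr6:127125162-127152193 (minus), Ccnd3 at chr17:47505051-47599691 (plus), Cdk4 at chr10:127063534-127067920 (plus), Cdk6 at chr5:3341485-3531008 (plus) and Trp53 at chr11:69580359-69591873 (plus). Cdkn2a is annotated with 2 transcripts that differ in exon 1. The upstream first exon, at chr4:89294334-89294653, is that of p19Arf, and the downstream one, at chr4:89281986-89282192, is that of p16Ink4a. Both transcripts share exon 2 at chr4:89276645-89276985, and their last exons overlap, so the UMIs of Cdkn2a given below are for the locus and cannot be split between the 2 proteins. The sequence upstream of each first exon is shown with that of Cdkn2b, because the locus has a promoter for each of these products and Cdkn2a gave the values on which the comparison of the tumours turns. RefSeq promoter windows were found in the sequence table for 8 of the 10 members, 11 windows in all, each with the 250 bases before a start. They were searched on both strands for the E2F motifs TTTGGCGC, TTTCCCGC, TTTGCCGC and TTTCGCGC, for TGATGNAA (a motif of CHOP and ATF4) and for the cyclic AMP response element TGACGTCA; no match of one motif overlapped another in the windows shown. Capitals mark a match, and all 3 are written 5′ to 3′ along the minus strand (RefSeq, GRCm38.p6) without the 34, 0 and 7 bases that GENCODE places in exon 1.
Cdkn2a, upstream first exon: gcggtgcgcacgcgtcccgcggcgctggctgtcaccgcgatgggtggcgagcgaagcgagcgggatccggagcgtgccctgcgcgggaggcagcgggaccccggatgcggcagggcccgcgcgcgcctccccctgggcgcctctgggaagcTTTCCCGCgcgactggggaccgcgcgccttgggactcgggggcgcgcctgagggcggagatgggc
Cdkn2a, downstream first exon: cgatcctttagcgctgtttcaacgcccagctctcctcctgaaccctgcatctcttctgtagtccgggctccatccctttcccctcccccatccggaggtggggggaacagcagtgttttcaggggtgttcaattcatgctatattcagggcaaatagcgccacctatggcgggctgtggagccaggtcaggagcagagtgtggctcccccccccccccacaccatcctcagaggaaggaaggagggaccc
Cdkn2b: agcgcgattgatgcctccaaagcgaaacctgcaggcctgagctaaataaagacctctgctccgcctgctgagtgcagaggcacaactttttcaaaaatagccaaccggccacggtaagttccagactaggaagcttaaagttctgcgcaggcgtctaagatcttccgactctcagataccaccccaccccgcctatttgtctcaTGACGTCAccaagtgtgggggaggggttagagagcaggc

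The first window, chr4:89294654-89294869, held 1 E2F match and 78.7% G and C. The second, chr4:89282193-89282442, held no match to the 3 motif sets and 60% G and C, and the third, chr4:89311040-89311282, held 1 cyclic AMP response element and 53.5%. Among 32851 RefSeq windows of 250 bases, 1.86% held an E2F match, 3.45% a TGATGNAA match and 1.55% a cyclic AMP response element, and the median G and C content was 52.4%. Of the 11 member windows, 1 held an E2F match, 0 TGATGNAA and 1 the response element; a match is a run of letters, not a site of binding.

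The 4 libraries held 45220 cells, and 45062 passed the filters on gene number and mitochondrial share. Libraries had 83513906 to 119758159 UMIs. The cells in the files carry running numbers rather than barcode sequences, so barcodes shared between libraries could not be counted. After the 6% of cells most like simulated doublets were removed from each library, clusters were named from marker lists: 25573 cells were tumour-like, 10708 macrophage or monocyte-like, 2063 T and NK-like, 408 dendritic-like, 238 fibroblast-like, 120 neutrophil-like, 79 endothelial-like and 3170 unnamed. The unnamed cells reached no class's limits or held normal mammary genes and were left out. They were 3.08 and 4.39% of the Sema4d-shRNA libraries, against 15.05 and 7.96% of the NC libraries. Among them cluster 8, led by mitochondrial genes, had tumour markers summing to 1095 CPM and macrophage markers to 546, short of the 3-fold limit for tumour-like cells. With doublets it held 180 and 397 Sema4d-shRNA cells, against 1127 and 606 NC cells, which the tumour-like shares do not count. Tumour-like cells made up 73.3 and 67.8% of the Sema4d-shRNA libraries, against 49.1 and 49.8% of the NC libraries. In these cells 12 of 17 tumour markers reached 20 CPM in every library, summing to 1476 to 1784, while the 10 mammary epithelial markers, Epcam among them, summed to at most 1.51. The 15 macrophage markers summed to 199 and 207 CPM in tumour-like cells of the Sema4d-shRNA libraries, against 418 and 553 in the NC libraries, compared with 34034 to 40189 in macrophage-like cells.

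In tumour-like cells Sema4d itself had 3.87 and 5.46 CPM in the Sema4d-shRNA libraries, against 6.68 and 7.42 in the NC libraries. Both knockdown libraries were below both controls, as were 31.5% of all genes tested. Sema4d was also lower in both knockdown libraries in T and NK-like cells, with 160.6 to 167.6 CPM against 217.8 to 223.5. The same held in dendritic-like cells, with 45.3 to 59.4 against 79.4 to 112.5. In macrophage-like cells the groups overlapped, with 63.8 to 79.6 against 65.6 to 70.5. In tumour-like cells its log2 fold change was -0.54 (SE 0.18, adjusted p 0.279) by edgeR's quasi-likelihood test with Benjamini-Hochberg adjustment over 14481 genes. A gene is called below where its adjusted p was under 0.05, and Sema4d was not. It was called with no filter on low counts (adjusted p 0.0200) and without Sema4d-shRNA 2 (0.00396).

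Across cell classes, Cdkn2a and Cdkn2b were highest in tumour-like cells, Cdkn1a was highest in myeloid cells, Cdk6 in T and NK-like cells, and Ccnd1, Cdk4 and Trp53 in tumour-like cells. These levels, in CPM of the class and as mean ± SD over 4 libraries, describe the classes and were not tested, since the classes were built from the same cells' expression; of the members, Cdkn1a was among the 2000 variable genes that made the clusters. Neutrophil-like, endothelial-like and fibroblast-like cells numbered under 50 in at least 1 library and only complete the order. The tumour markers summed in them to 39.8 to 51.1%, 105 to 184% and 35.8 to 86.5% of the tumour-like level. In endothelial-like cells Cdkn2a stood at 0 to 32.5%, so the marker list is not particular to tumour-like cells. What part of the marker sums was tumour RNA, in these or the other classes, was not tested.

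Cdkn2a, the INK4 and Arf gene, averaged 403 ± 97.5 CPM in tumour-like cells, against 281 ± 52.6 in neutrophil-like, 67.2 ± 69.9 in fibroblast-like, 62.7 ± 46.98 in endothelial-like, 56.1 ± 24.9 in T and NK-like, 46.5 ± 15.6 in dendritic-like and 27.2 ± 3.995 in macrophage-like cells (SD, n = 4). Over the 4 libraries of both groups the ranges of tumour-like and neutrophil-like cells overlapped, and so did those of the 5 lower classes with their neighbours. Within each library Cdkn2a in neutrophil-like cells was lower, at 55.5 to 91.6% of the tumour-like level. Cdkn2b followed the same order at its ends, with 138 ± 13.3 in tumour-like and 9.35 ± 2.02 in macrophage-like cells. In macrophage-like cells Cdkn2a stood at 5.72 to 8.67% and Cdkn2b at 5.97 to 8.64% of the tumour-like level, where the tumour markers stood at 7.15 to 13.5%. Cdkn2a in T and NK-like cells stood at 8.19 to 16.9% and the tumour markers at 11.7 to 19.5%. In macrophage-like cells of each library both INK4 genes were thus at or below the share of the tumour markers. Whether their UMIs there came from free tumour RNA was not tested. Among T and NK-like cells Cdkn2a was below the marker share in 3 of 4 libraries and just above in NC 2. Cdkn2b was above it in 2 of 4. In dendritic-like cells both genes were above the marker share in all 4 libraries. Cdkn2a stood at 9.56 to 14.5% and Cdkn2b at 11.6 to 24.9% of the tumour-like level, against 7.77 to 9.08% for the tumour markers. These shares rest on few UMIs, 34 of Cdkn2a and 17 of Cdkn2b in the Sema4d-shRNA libraries together and 38 and 13 in the NC libraries. The difference from the markers was not tested.

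A UMI of Cdkn2a was found in 84.5 and 85.0% of tumour-like cells in the Sema4d-shRNA libraries, against 93.1 and 89.05% in the NC libraries. Their exact (Clopper-Pearson) 95% intervals, which cover counting error only, ran from 83.6 to 85.3% and 84.2 to 85.8% in Sema4d-shRNA and from 92.4 to 93.8% and 88.1 to 89.9% in NC libraries. After each cell was thinned to 3000 UMIs, with shallower cells left out, the shares were 57.3 and 60.5%, against 75.4 and 70.6%. In macrophage-like cells the thinned shares were 5.57 and 7.84%, against 7.92 and 7.33%. The median depth was 8848 to 11054 UMIs in tumour-like and 3716 to 4336 UMIs in macrophage-like cells. The share of tumour-like cells with Cdkn2a was lower in both Sema4d-shRNA libraries than in both NC libraries before and after thinning.

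The inhibitors of the CIP and KIP family behaved differently by class. Cdkn1a averaged 392 ± 166 CPM in neutrophil-like, 376 ± 133 in dendritic-like and 341 ± 49.2 in macrophage-like cells, and these 3 overlapped. Endothelial-like, fibroblast-like and T and NK-like cells followed, at 167 ± 69.6, 88.3 ± 15.7 and 87.9 ± 20.1, each overlapping the next. Tumour-like cells were lowest, at 24.8 ± 3.98, and did not overlap the class above them. The tumour-like level was 5.80 to 8.24% of the macrophage-like level, where the macrophage markers stood at 0.567 to 1.38%. Within macrophage-like cells Cdkn1a ranged widely by cluster, from 215 to 284 CPM over the 4 libraries in the largest cluster and from 655 to 901 in the highest. Cdkn1b ranged from 66.4 ± 12.9 in T and NK-like to 25.6 ± 9.02 in endothelial-like cells, and each class overlapped its neighbour in the order.

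The D-type cyclins were distributed by class. Ccnd1 averaged 782 ± 69.5 CPM in tumour-like and 683 ± 185 in endothelial-like cells, which overlapped. It averaged 395 ± 145 in neutrophil-like, 357 ± 85.7 in dendritic-like, 268 ± 54.03 in macrophage-like, 169.9 ± 94.7 in fibroblast-like and 100.2 ± 39.9 in T and NK-like cells, each overlapping the next and none the upper pair. Ccnd2 averaged 648 ± 187 in dendritic-like, 501 ± 28.3 in tumour-like and 476 ± 46.4 in T and NK-like cells, which overlapped, and was lowest in macrophage-like cells at 139.9 ± 15.6. Ccnd3 was highest in dendritic-like cells at 180.2 ± 23.8 and T and NK-like cells at 172 ± 14.3, and averaged 52.3 ± 6.34 in tumour-like cells. As a share of the UMIs of the 3 cyclin D genes, which count captured molecules and are not scaled by length, Ccnd1 took 57.1 to 59.5% in tumour-like cells over the 4 libraries, against 7.44 to 18.8% in T and NK-like cells, while Ccnd2 took 36.6 to 38.7% in tumour-like cells, against 58.04 to 68.1% in T and NK-like cells.

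The kinases that these cyclins activate also differed by class. Cdk4 averaged 369 ± 9.34 CPM in tumour-like cells, whose range overlapped that of no other class, and 113 ± 6.37 in macrophage-like cells. Cdk6 averaged 184 ± 26.5 in T and NK-like cells, whose range lay above that of tumour-like cells at 91.8 ± 9.60. Trp53 averaged 103 ± 2.44 in tumour-like cells, against 78.9 ± 4.48 in the T and NK-like class and 41.98 ± 5.50 in macrophage-like cells, and its tumour-like range lay above that of T and NK-like cells.

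**Figure D1:**
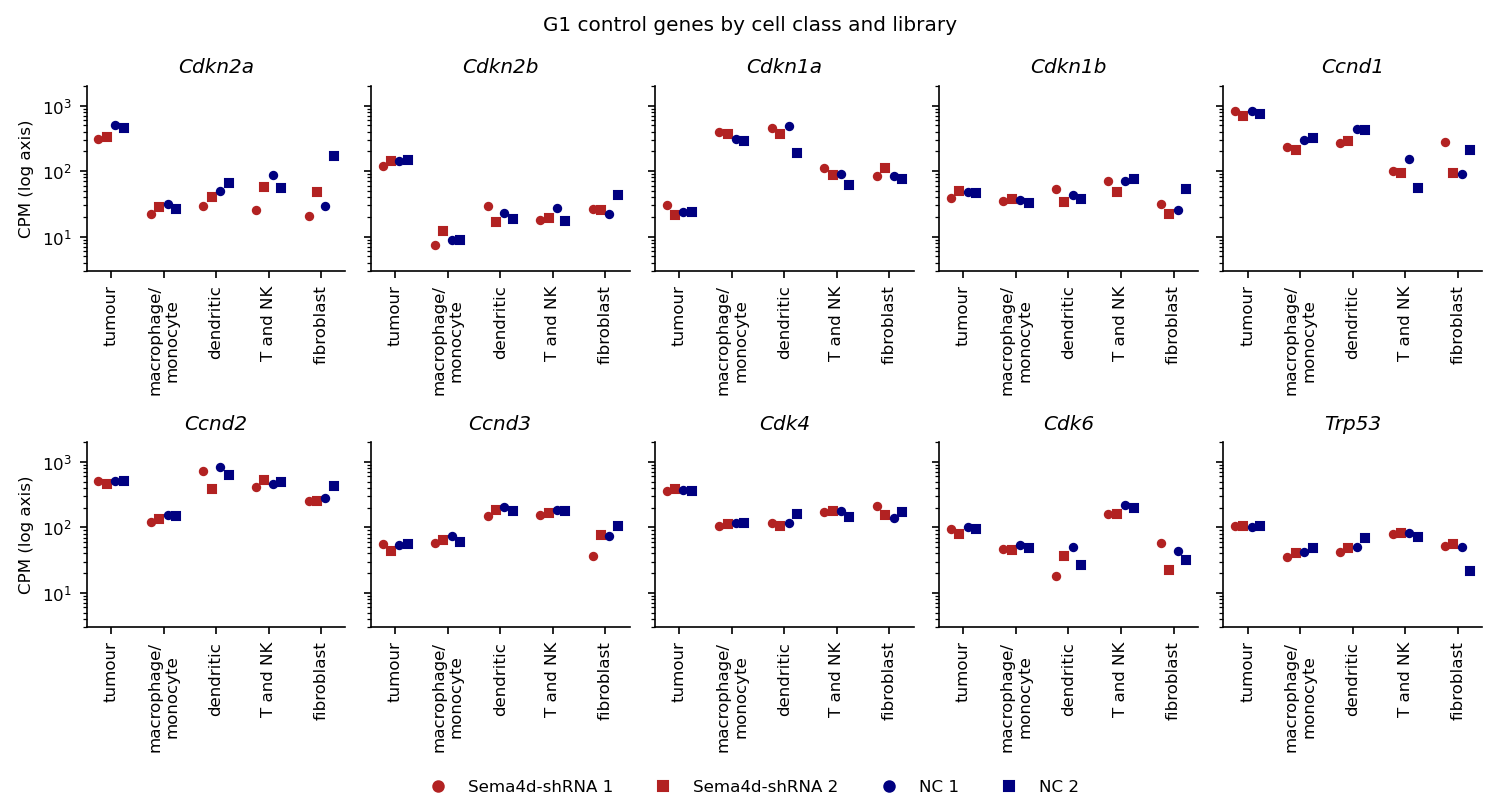
CPM (log axis) of each member in 5 cell classes, 1 point per library, Sema4d-shRNA libraries in red and NC libraries in dark blue, circles for library 1 and squares for library 2. Cdkn2a and Cdkn2b were highest in tumour-like cells, Cdkn1a was lowest there, and Cdk6 was highest in T and NK-like cells.

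In tumour-like cells Cdkn2a was lower in both Sema4d-shRNA libraries than in both NC libraries without passing the test over all genes, and no other member separated the groups. Cdkn2a had 310.4 and 332 CPM in the Sema4d-shRNA libraries, against 512 and 457 in the NC libraries. The means were 321 ± 15.3 CPM in Sema4d-shRNA libraries and 485 ± 38.8 in NC libraries (SD, n = 2 each), a level in Sema4d-shRNA of 66.3% of NC, with a log2 fold change of -0.54 (SE 0.093, adjusted p 0.0518) by edgeR. It was not called, and ranked 80 by p among 14481 genes. The call depended on the test: the adjusted p was 4.53e-05 with DESeq2, 1.32e-05 with no filter on low counts and 0.0412 with the replicate number as a block, against 0.0324 without Sema4d-shRNA 1, 0.00665 without Sema4d-shRNA 2, 0.322 without NC 1 and 0.241 without NC 2; with an arm of 1 library, the lone library is assumed to vary like the others.

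No member passed the test in tumour-like cells, where 0.518% of the 14481 genes were called and 1795 had an unadjusted p under 0.05. Of the 10 members, 1 had both Sema4d-shRNA libraries below both NC libraries and 0 had both above. Among all genes 31.5% lay below and 12.8% above (the smallest exact permutation p of 2 against 2 libraries is 0.333). CPM carry no TMM factors, unlike the log2 fold changes, whose median over all genes was 0.0059. The macrophage markers in these cells, given above, were also lower in both Sema4d-shRNA libraries; Cdkn2a in macrophage-like cells was at most 8.67% of its tumour-like level.

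Among the other inhibitors, Cdkn2b had 119 and 141 CPM in the Sema4d-shRNA libraries, against 141 and 150.3 in the NC libraries, and Sema4d-shRNA 2 was level with NC 1. Cdkn1a had 30.7 and 21.6 CPM in the Sema4d-shRNA libraries, against 23.4 and 23.7 in the NC libraries, and its 2 knockdown libraries lay on either side of the controls. Cdkn1b had 39.3 and 49.5 CPM in the Sema4d-shRNA libraries, against 48.1 and 46.4 in the NC libraries, again on either side. The log2 fold changes were -0.11 for Cdkn2b, 0.20 for Cdkn1a and -0.033 for Cdkn1b, with adjusted p of 0.731, 0.646 and 0.941 (edgeR). Cdkn1a was called without Sema4d-shRNA 2, at a log2 fold change of 0.42.

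Of the cyclins, Ccnd1 had 834 and 694 CPM in the Sema4d-shRNA libraries, against 841 and 758 in the NC libraries. Ccnd2 had 514 and 459 CPM in the Sema4d-shRNA libraries, against 519 and 513 in the NC libraries. Ccnd3 had 56.7 and 42.9 CPM in the Sema4d-shRNA libraries, against 54.0 and 55.5 in the NC libraries. For all 3, Sema4d-shRNA 2 was the lowest of the 4 libraries and Sema4d-shRNA 1 lay within the range of the controls or above its lower end, so the groups overlapped. Their log2 fold changes were -0.013, -0.03 and -0.085 (SE 0.10, 0.085 and 0.12), and none passed the test.

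Of the kinases, Cdk4 had 365 and 383 CPM in the Sema4d-shRNA libraries, against 367 and 363 in the NC libraries. Cdk6 had 94.9 and 78.3 CPM in the Sema4d-shRNA libraries, against 101 and 93.3 in the NC libraries, and as for the cyclins Sema4d-shRNA 2 was the lowest. Trp53 had 103 and 105 CPM in the Sema4d-shRNA libraries, against 99.6 and 104 in the NC libraries. The log2 fold changes were 0.092 for Cdk4, -0.11 for Cdk6 and 0.089 for Trp53 (SE 0.082, 0.10 and 0.077), and none passed the test. How strand was used in counting is not stated, and Ccnd1, Ccnd2, Ccnd3, Cdk4, Cdk6 and Cdkn1a overlap a gene on the opposite strand (LTO1; Gm43126 and 9330179D12Rik; Bysl; Tspan31; Gm17590 and Gm42435; AC167363.2), so their UMIs may include those of a neighbour.

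**Figure D2:**
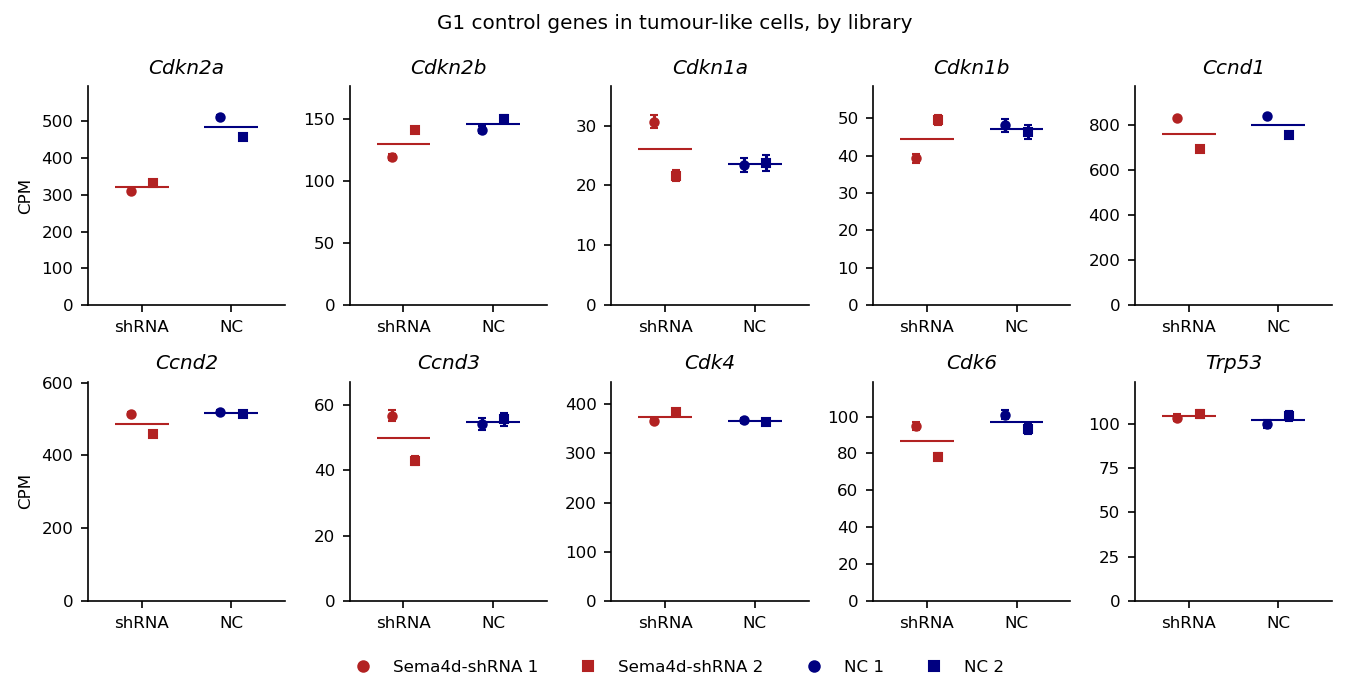
CPM of each member in tumour-like cells, Sema4d-shRNA libraries in red to the left and NC libraries in dark blue to the right; bars on points are exact 95% Poisson intervals for counting error and horizontal lines are group means. Cdkn2a lay at 310.4 and 332 in Sema4d-shRNA and at 512 and 457 in NC, while the groups overlapped for every other member.

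The lower Cdkn2a was present in each of the 8 tumour-like clusters, in all of which both Sema4d-shRNA libraries were below both NC libraries; among 14481 genes 0.808% did the same, and of the members only Cdkn2a did. In cluster 6, led by Slurp1 and H19, Cdkn2a had 432 and 436 CPM in Sema4d-shRNA, against 621 and 584 in NC. It was lowest in cluster 4, led by the mitotic genes Pbk and Cdk1, with 243 and 264 CPM in Sema4d-shRNA, against 385 and 327 in NC. In cluster 1, led by Cryab and Car9, where most cells were from the knockdown (1161 and 1395 cells in Sema4d-shRNA, against 74 and 198 in NC), it had 345 and 371 CPM in Sema4d-shRNA, against 528 and 451 in NC.

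Ccnd1 differed by cluster in each library. It was highest in clusters 7, 3 and 4, with 990.2 to 1111, 825 to 1089.7 and 879 to 1088 CPM over the 4 libraries, and lowest in cluster 2, led by Enpp2 and Cxcl1, with 383 to 494. The groups overlapped for Ccnd1 in every cluster. Cdkn2b was lower in both Sema4d-shRNA libraries in 4 of 8 clusters and overlapped in the other 4. Ccnd2 was lower in 3, higher in 1 and overlapped in 4, and Cdkn1a overlapped in all 8. The share of all genes apart in single clusters was not counted. Over all tumour-like cells 31.5% of genes lay below and 12.8% above, so these counts are not read as particular to the members.

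**Figure D3:**
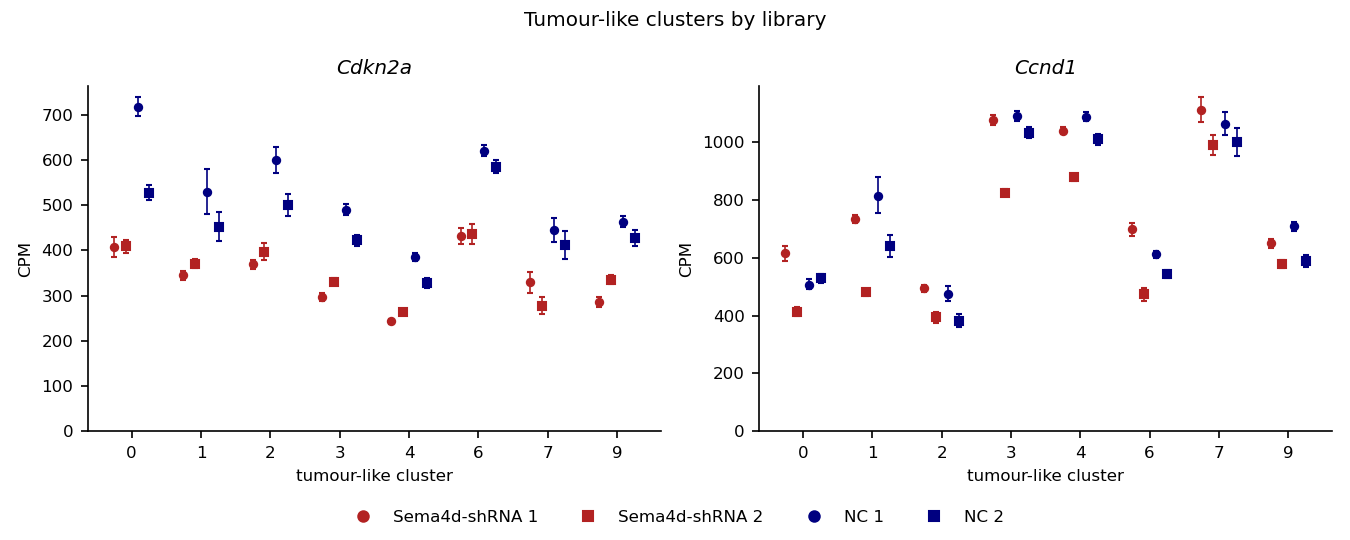
CPM of Cdkn2a and Ccnd1 in the 8 tumour-like clusters, 1 point per library with its exact 95% Poisson interval, Sema4d-shRNA libraries in red to the left of NC libraries in dark blue. For Cdkn2a the NC points lie above the Sema4d-shRNA points in each cluster, and for Ccnd1 clusters 3, 4 and 7 stand above the rest in each library.

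Tumour-like cells were next split into states by UMIs of 4 genes that are not members. Cells with 3 or more UMIs of Top2a and Mki67 were called cycling, the remaining cells with 5 or more UMIs of Ddit3 and Ero1l (markers of the unfolded protein response) were called stress, and the rest other. Cycling cells were 23.3 and 19.8% of tumour-like cells in the Sema4d-shRNA libraries, against 22.4 and 15.7% in the NC libraries, and stress cells were 18.2 and 14.6% of tumour-like cells in the Sema4d-shRNA libraries, against 14.99 and 13.04% in the NC libraries. Between 125 and 271 cells per library lay just inside the cycling limit, at 3 UMIs, and 274 to 500 just outside, at 2. Since the limits count UMIs, states differ in depth: the median was 16554 to 20271 UMIs in cycling, 12204 to 14497 in stress and 7068 to 8427 in other cells. States were compared within libraries by edgeR's quasi-likelihood test with library as a block, over 12879 genes; the sums of 1 library share its preparation, and p-values measure how alike the state difference was in these 4 libraries.

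In cycling cells the INK4 genes, Ccnd2 and Ccnd3 were lower than in the other cells, and Ccnd1, Cdk4, Trp53 and Cdkn1a were higher. For Cdkn1a this held only with the cells past both the cycling and the stress limit counted as cycling, as given below. Of the 10 members 4 rose and 4 fell, where 31.2% of all genes tested rose and 31.3% fell, so 8 of 10 called stand beside 62.5% of all genes. Cdkn2a had 260.4, 279, 408 and 351 CPM in cycling cells of Sema4d-shRNA 1, Sema4d-shRNA 2, NC 1 and NC 2, against 356, 359, 598 and 518 in the other cells of the same libraries. It was lower in cycling cells of all 4 libraries (as were 28.3% of all genes tested, while 39.1% were higher in all 4), with a log2 fold change of -0.55 (SE 0.035, adjusted p 3.45e-15). Cdkn2b had 91.7, 119, 113 and 121 CPM in cycling cells of Sema4d-shRNA 1, Sema4d-shRNA 2, NC 1 and NC 2, against 135, 149, 159.6 and 163 in the other cells of the same libraries. It too was lower in all 4, with a log2 fold change of -0.52 (SE 0.036, adjusted p 1.35e-14).

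The 3 cyclins moved in opposite directions. Ccnd1 had 1031, 898, 1055 and 1007 CPM in cycling cells of Sema4d-shRNA 1, Sema4d-shRNA 2, NC 1 and NC 2, against 739, 635, 731 and 696 in the other cells of the same libraries. The cycling range lay above that of the other cells, at 1.40 to 1.45 times the level, with a log2 fold change of 0.45 (SE 0.035, adjusted p 2.37e-12) (edgeR). Ccnd2 had 430.3, 431, 471 and 454 CPM in cycling cells of Sema4d-shRNA 1, Sema4d-shRNA 2, NC 1 and NC 2, against 579, 485, 560.02 and 558 in the other cells of the same libraries. It fell with a log2 fold change of -0.35 (SE 0.035, adjusted p 4.56e-10). Ccnd3 fell, with a log2 fold change of -0.51 (SE 0.044), to 38.7 to 46.4 CPM in cycling cells, against 46.7 to 68.4 in other cells.

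Of the kinases, Cdk4 had 418 to 447 CPM in cycling cells, against 330.1 to 370.5 in other cells, with a log2 fold change of 0.26 (SE 0.033, adjusted p 1.42e-08) (edgeR). Cdk6 had 80.9 to 99.2, against 77.8 to 100.5, and did not pass the test (log2 fold change -0.042, adjusted p 0.347). Trp53 had 124 to 134, against 88.7 to 98.1, and its ranges did not overlap, with a log2 fold change of 0.38 (SE 0.036, adjusted p 2.94e-11).

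Cdkn1a had 35.5, 24.8, 23.5 and 31.1 CPM in cycling cells of Sema4d-shRNA 1, Sema4d-shRNA 2, NC 1 and NC 2, against 18.4, 15.2, 16.8 and 14.1 in the other cells of the same libraries, with a log2 fold change of 0.76 (SE 0.11, adjusted p 0.000177) (edgeR). Between 4.87 and 9.24% of tumour-like cells per library were past the cycling and the stress limit and counted as cycling. Without them the log2 fold change was 0.012, with an adjusted p of 0.923. Cdkn1b did not pass the test (log2 fold change -0.039, adjusted p 0.484), but fell without those cells, at -0.28 with an adjusted p of 1.74e-05. The stress limit counts UMIs and was stricter for the deeper cycling cells than for the other cells. What part this had in the values without those cells was not tested.

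Finer bins of Top2a and Mki67 UMIs gave graded levels. Over the 4 libraries Cdkn2a had 348 to 580.1 CPM in cells with 0 Top2a and Mki67 UMIs, 330.1 to 562 with 1 to 2, 277 to 424 with 3 to 9 and 249 to 397 with 10 or more; in each library it fell at every step. Ccnd1 had 552 to 686 CPM in cells with 0 Top2a and Mki67 UMIs, 675 to 799 with 1 to 2, 846 to 962 with 3 to 9 and 948 to 1124 with 10 or more, and rose at every step in each library. Trp53 had 80.8 to 91.2 CPM in cells with 0 Top2a and Mki67 UMIs, 91.7 to 100.4 with 1 to 2, 120.5 to 126 with 3 to 9 and 124 to 141 with 10 or more. It rose over the first 2 steps in each library and over the last step in 3 of 4. Ccnd2 and Ccnd3 were lower in the 2 upper bins than in the 2 lower bins of each library.

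**Figure D4:**
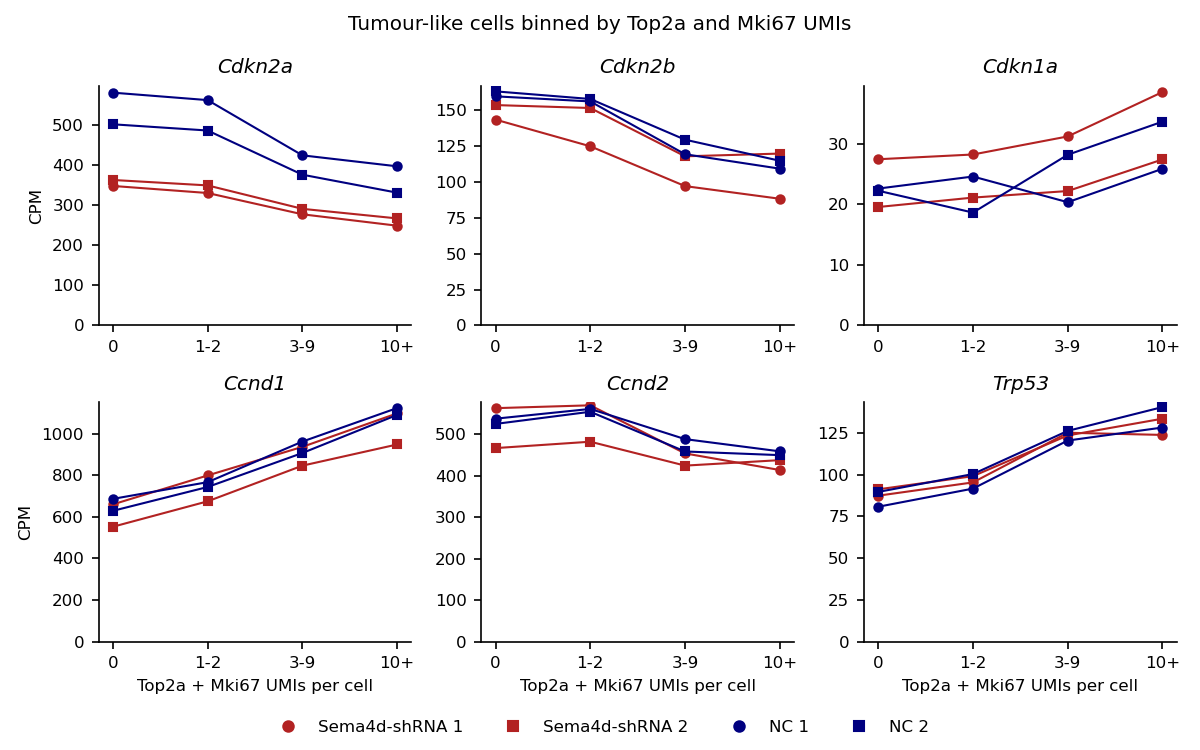
CPM of 6 members in tumour-like cells grouped by their Top2a and Mki67 UMIs (0, 1 to 2, 3 to 9, 10 or more), 1 line per library, Sema4d-shRNA in red and NC in dark blue. Cdkn2a falls and Ccnd1 rises from the lowest to the highest bin in every library, and the Sema4d-shRNA lines of Cdkn2a lie below the NC lines in every bin.

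In stress cells Cdkn1a and Cdkn1b were higher than in the other cells, and 6 members were lower by smaller amounts. Of all genes tested 32.6% were called: 17.6% rose and 14.9% fell, against 2 and 6 of 10 members. Cdkn1a had 44.5, 33.6, 40.4 and 44.9 CPM in stress cells of the same 4 libraries, against 18.4, 15.2, 16.8 and 14.1 in the other cells. The stress range lay above the other range, at 2.21 to 3.18 times the level, with a log2 fold change of 1.38 (SE 0.11, adjusted p 1.24e-05) (edgeR). Cdkn1b had 45.1, 64.9, 56.8 and 58.2 CPM in stress cells of the same 4 libraries, against 37.2, 44.9, 47.5 and 43.6 in the other cells. It was higher in all 4 libraries (as were 16.1% of genes, while 30.7% were lower in all 4), with a log2 fold change of 0.44 (SE 0.048, adjusted p 1.1e-08). Cdkn1a rose with the number of Ddit3 and Ero1l UMIs in cells that were not cycling, from a mean of 13.1 ± 2.62 CPM at 0 to 57.04 ± 9.14 at 10 or more (SD, n = 4).

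The members that fell in stress cells were Ccnd3, with a log2 fold change of -0.22, Ccnd1 with -0.17, Trp53 with -0.13, Cdkn2a with -0.12, Ccnd2 with -0.10 and Cdk4 with -0.091. Of these 6, Cdkn2a, Ccnd2, Cdk4 and Trp53 were not called without NC 1 or without NC 2, and Cdk4 and Trp53 were not called without Sema4d-shRNA 2. Cdk6 and Cdkn2b did not pass the test, at log2 fold changes of 0.057 and 0.069. In the finer bins Ccnd1 had 697 ± 41.6 CPM at 0 stress UMIs and 519 ± 87.7 at 10 or more. Stress and other cells both lay below the cycling limit, which counts UMIs and was stricter for the deeper stress cells. Top2a in stress cells stood at 0.683 to 0.852 times its level in other cells, and Mki67 at 0.541 to 0.761 times. What part this had in the falls was not tested.

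**Figure D5:**
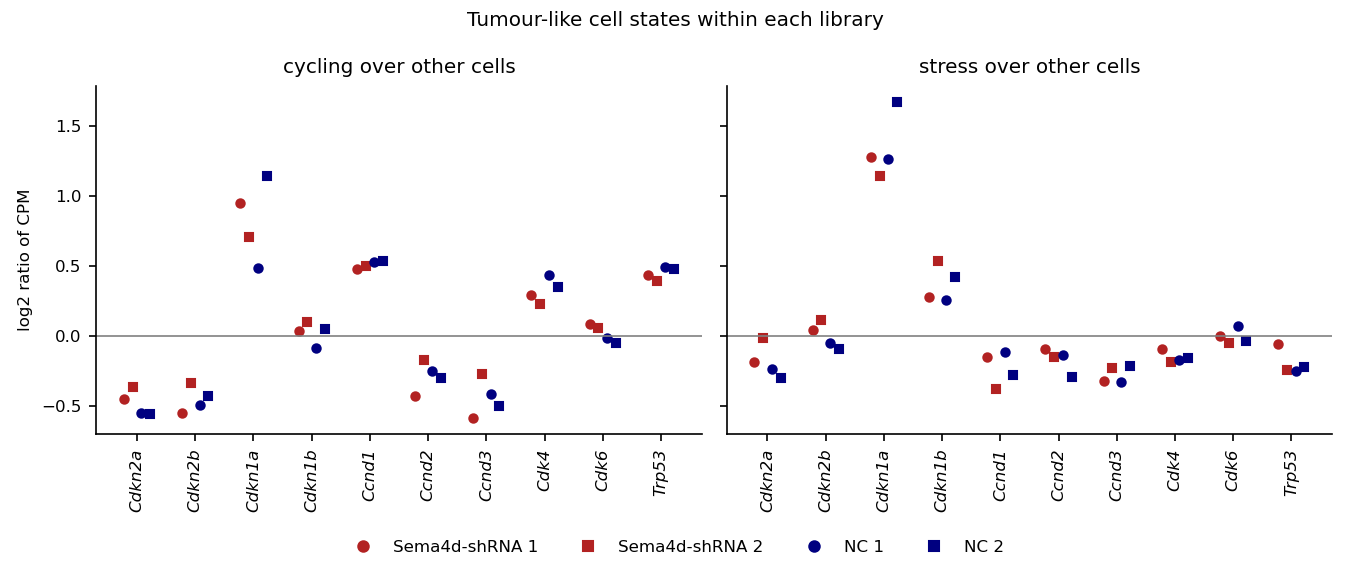
Log2 ratio of CPM in cycling cells (left) and stress cells (right) over the other tumour-like cells of the same library, 1 point per library, Sema4d-shRNA in red and NC in dark blue. Ccnd1, Cdk4 and Trp53 lie above 0 and Cdkn2a, Cdkn2b, Ccnd2 and Ccnd3 below 0 in cycling cells of all 4 libraries. Cdkn1a is above 0 in both states, where cells past both limits count as cycling.

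The shRNA was then compared with NC within each state. In other cells Cdkn2a had 356 and 359 CPM in the Sema4d-shRNA libraries, against 598 and 518 in the NC libraries. It was called there, with a log2 fold change of -0.59 (SE 0.10, adjusted p 0.0382) (edgeR), where 0.656% of 13101 genes were called. It was not called with the replicate number as a block (adjusted p 0.115), without NC 1 (0.3003), without NC 2 (0.113) or with lower state limits (0.0544). In cycling cells Cdkn2a had 260.4 and 279 CPM in the Sema4d-shRNA libraries, against 408 and 351 in the NC libraries, with a log2 fold change of -0.45 (SE 0.092, adjusted p 0.0655) (called: 0.44% of 12719 genes). In stress cells it had 313 and 355 CPM in the Sema4d-shRNA libraries, against 508 and 419.9 in the NC libraries, with a log2 fold change of -0.45 (SE 0.12, adjusted p 0.112) (0.814% of 11791 genes). In all 3 states both knockdown libraries lay below both controls.

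Whether the log2 fold change of Cdkn2a between Sema4d-shRNA and NC differed between cycling and other cells was tested as an interaction. The difference was 0.15 (SE 0.064) on the log2 scale, with an adjusted p of 0.687 (edgeR, unadjusted p 0.0256), so it did not pass the test. None of the 9 other members passed it either, where 0.217% of genes did. Outside Cdkn2a no member was called in any state between Sema4d-shRNA and NC. In CPM, which carry no TMM factors, both knockdown libraries lay below both controls for Ccnd2 and Cdk4 in cycling cells (28.7% of genes). They also lay below for Cdkn2b and Cdk6 in other cells (30.8%), and above for Cdk4 and Trp53 in stress cells (15.4%). In the edgeR test Cdk4 in cycling cells ranked 12262 by p among 12719 genes.

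In macrophage-like cells Cdkn1a was higher and Ccnd1 lower in both Sema4d-shRNA libraries than in both NC libraries, without passing the test over all genes. Cdkn1a had 392 and 373 CPM in the Sema4d-shRNA libraries, against 313 and 288 in the NC libraries, with a log2 fold change of 0.42 (SE 0.12, adjusted p 0.187) (edgeR). Ccnd1 had 232 and 212 CPM in the Sema4d-shRNA libraries, against 302 and 324 in the NC libraries, with a log2 fold change of -0.42 (SE 0.12, adjusted p 0.187). Cdkn1a was called without Sema4d-shRNA 2 (adjusted p 0.0403) and Ccnd1 with no filter on low counts (0.0236). Tumour markers in the macrophage-like cells summed to 199.5 and 156 CPM in the Sema4d-shRNA libraries, against 148 and 119 in the NC libraries. Over the 4 libraries Ccnd1 averaged 268 CPM in macrophage-like cells, against 782 in tumour-like cells. The part of tumour RNA in the Ccnd1 values was not tested. No member was called among 12454 genes, of which 0.249% were and 1286 had an unadjusted p under 0.05. Ccnd1, Ccnd2, Cdk4, Cdk6 and Trp53, 5 of 10 members, lay lower in both knockdown libraries, against 31.1% of genes, and Cdkn1a, 1 of 10, lay higher, against 12.5%.

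The macrophage-like cells fell into 5 clusters whose sizes differed between the groups, the largest holding 858 and 1303 cells in the Sema4d-shRNA libraries, against 1755 and 2629 in the NC libraries. In that cluster Cdkn1a had 261 and 284 CPM in Sema4d-shRNA, against 215 and 219 in NC, and Ccnd1 had 284 and 241, against 353 and 365. In cluster 18, with the highest Cdkn1a, that gene had 796 and 901, against 788 and 655, and Ccnd1 had 149.7 and 167, against 145 and 147. Ccnd1 was thus lower in both knockdown libraries than in both controls in the largest cluster. In cluster 18 it was higher in both, but the nearest values were 149.7 and 147. The cells of cluster 18 were shallow, with a median of 0.306 times their library's median UMIs, and no change of direction is read from it. Of the other macrophage-like clusters, Ccnd1 was lower in both knockdown libraries in clusters 10 and 11, and the groups overlapped in cluster 14. Cdkn1a was higher in both knockdown libraries in the largest cluster and in cluster 18 and lower in both in cluster 10, and the groups overlapped in clusters 11 and 14. Top2a in macrophage-like cells was also lower in both knockdown libraries, with 89.1 and 84.04 CPM in the Sema4d-shRNA libraries, against 131 and 146 in the NC libraries. In macrophage-like cells below the cycling limit Ccnd1 had 227 and 211 CPM in the Sema4d-shRNA libraries, against 312 and 336 in the NC libraries, again without overlap. In those past the cycling limit it had 264 and 222 CPM in the Sema4d-shRNA libraries, against 256 and 275 in the NC libraries, and the groups overlapped. The part of the cluster sizes in the pooled difference was not tested. The share of all genes apart in single clusters or on either side of the cycling limit was not counted. Over all macrophage-like cells 31.1% of genes lay below and 12.5% above.

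No member was called in the T and NK-like class, where 0.316% of 8552 genes were and 533 had an unadjusted p under 0.05. Cdk6 had 162 and 163 CPM in the Sema4d-shRNA libraries, against 216 and 195 in the NC libraries, with a log2 fold change of -0.32 (SE 0.14, adjusted p 0.752) (edgeR). Its ranges did not overlap, as for Cdkn1b and Ccnd3; 3 of 10 members lay below in both knockdown libraries, against 18.9% of genes. Cdkn2a had 25.4 and 56.2 CPM in the Sema4d-shRNA libraries, against 86.5 and 56.2 in the NC libraries. Its share of the tumour-like level was close to that of the tumour markers, as given above. The log2 fold change of Cdkn2a was -0.73 (SE 0.38, adjusted p 0.88) (edgeR). It was called without Sema4d-shRNA 2 or without NC 2, and its log2 fold change was -0.00051 with the cells marked as doublets kept. T and NK-like cells numbered 482 and 936 in the Sema4d-shRNA libraries, against 382 and 263 in the NC libraries.

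The rest of the pathway was counted over 6 gene lists. Between Sema4d-shRNA and NC tumour-like cells, 0 genes were called of 13 pocket proteins and E2F factors, 15 other G1 and S cyclins, kinases and inhibitors, 25 E2F target genes of S phase entry, 29 p53 targets, 14 p53 regulators and 24 genes upstream of cyclin D. In that order their median log2 fold changes were 0.15, 0.13, 0.21, 0.15, 0.078 and -0.0067, beside -0.03 over the members and 0.0059 over all genes. For the E2F targets 23 of 25 had a log2 fold change above 0, without a call. Tk1, which encodes thymidine kinase, had 77.1 and 60.7 CPM in Sema4d-shRNA, against 58.2 and 49.3 in NC, and Mcm7, of the replicative helicase, had 72.6 and 67.5, against 75.02 and 65.2. In macrophage-like cells 0 of 25 E2F targets were above 0, with a median of -0.34 and no call.

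Between states, 25 of 25 E2F targets rose in cycling cells, with a median log2 fold change of 1.63; of all genes tested 31.2% rose and 31.3% fell. Mcm7 had 116 to 134 CPM in cycling cells over the 4 libraries, against 42.5 to 46.4 in other cells, and Tyms, thymidylate synthase, had 106 to 113, against 29.7 to 38.1. Of 13 pocket proteins and E2F factors 12 rose, among them E2f4 with 37.6 to 43.9, against 23.9 to 30.3, E2f1 and E2f5, and Rbl2 fell. Of the 14 other cyclins, kinases and inhibitors tested 10 rose and 2 fell; Cks1b, a partner of cyclin-dependent kinases, had 439 to 532, against 189 to 242, Ccnh (cyclin H) rose and Mnat1, its partner, did not pass the test at a log2 fold change of 0.026. Of 27 p53 targets 10 rose and 11 fell, shares near those of all genes, with a median of -0.060, and Rps27l rose to 497 to 549, against 419 to 499.9, Rrm2b, a ribonucleotide reductase subunit, fell to 149 to 244, against 189 to 292, and Bax, which promotes apoptosis, did not pass the test at -0.06. Of 13 p53 regulators 10 rose and 1 fell, and Ezh2, the Polycomb methyltransferase that represses the Cdkn2a locus, had 85.05 to 103, against 31.8 to 35.4; Usp7 rose and Hipk2 fell. Of 24 genes upstream of cyclin D 9 rose and 12 fell, and the AP-1 genes Jun, with 373 to 491 against 603 to 681, Junb and Fos were among those that fell.

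In stress cells, where 17.6% of all genes rose and 14.9% fell, 0 of 25 E2F targets rose and 18 fell, with a median of -0.34. Tyms had 21.8 to 26.9 CPM, against 29.7 to 38.1 in other cells. The cycling limit was stricter for the deeper stress cells, as given above, and its part in these falls was not tested. Of 27 p53 targets 9 rose and 6 fell, of 13 p53 regulators 3 rose and 3 fell, and of 24 genes upstream of cyclin D 7 rose and 5 fell. Of 13 pocket proteins and E2F factors 3 rose and 3 fell, and of 14 other cyclins, kinases and inhibitors 1 rose and 7 fell. Mdm2, the ubiquitin ligase of p53, rose with a log2 fold change of 0.61 (SE 0.065, adjusted p 4.19e-09) (edgeR).

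A few list genes were called between Sema4d-shRNA and NC outside the tumour-like total. Fos, an AP-1 subunit, was higher in cycling cells, with a log2 fold change of 0.48 (SE 0.091, adjusted p 0.0451), and in stress cells, with a log2 fold change of 0.54 (SE 0.11, adjusted p 0.018) (edgeR). Btg2, an antiproliferative p53 target, was higher in stress cells, with a log2 fold change of 0.73 (SE 0.15, adjusted p 0.0195), and in other cells, with a log2 fold change of 0.81 (SE 0.11, adjusted p 0.0205). Among T and NK-like cells Fos, Jun and Junb were higher, with log2 fold changes of 1.09, 0.91 and 0.79 and adjusted p of 0.000354, 0.00155 and 0.00617. Plk2, a p53 target kinase, was the 1 list gene called in the interaction. Its log2 fold change between Sema4d-shRNA and NC differed between cycling and other cells by -0.39 (SE 0.086, adjusted p 0.0393) (edgeR).

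Some genes followed a member across classes. Over 16 sums, 4 classes in 4 libraries, and 7217 genes, the genes whose log2 level correlated most with that of Cdkn2a were Mprip, Mtdh and Csrp2, with Pearson's r of 0.984, 0.98 and 0.973. For Ccnd1 they were Psmb6, Sh3pxd2a and Palld, at 0.95, 0.941 and 0.933. For Ccnd2 they were Cdc42ep3, Fam60a and Ly75, at 0.967, 0.966 and 0.953, and for Cdkn1a they were Aig1, Rap2a and Ltb4r1, at 0.983, 0.981 and 0.974. The 4 sums of a library share its preparation and the class differences set these values, so they are descriptions.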

How the data were processed

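Single-cell libraries of 2 Sema4d-shRNA and 2 NC tumours were read as the authors' deposited matrices, which hold raw UMI counts per gene and cell and were written by PISA 1.0, per the file headers. STAR 2.5.1b and the builds GRCh38 and mm10 are named without a role in the submitters' processing notes; annotation, cell calling and strand use are not stated there. Other columns, in the deposited name files, hold gene symbols and cell names. The deposited libraries had 10575 and 13173 cells in Sema4d-shRNA and 10874 and 10598 in NC, with at least 1000 UMIs each.

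A cell was kept if it had 300 genes or more and mitochondrial UMIs made up no more than 20%, and the 6% of each library with the highest doublet scores were removed, because the automatic threshold marked at most 1.70% of a library. Counts were scaled to 10000 per cell, and 2000 variable genes, 30 principal components, 15 neighbours and Leiden resolution 1 gave 22 clusters (scanpy 1.11.5). A cluster was named where its mean log2 marker level exceeded that of the other clusters by 2.5 (a limit set after the clusters had been seen) with at least 3 markers at 20 CPM, and as tumour-like where no such class was reached and tumour markers summed to at least 3 times the macrophage markers. Free RNA was not modelled.

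UMIs were summed per library and class or state and tested with edgeR 4.0.16 (quasi-likelihood, TMM factors, low-count filter, R 4.3.3), adjusted over all genes tested. Sema4d-shRNA and NC were compared within each class or state; states were compared with library as a block; all 3 states of 4 libraries entered the interaction. Scripts were tested on simulated data. Alternatives were DESeq2 1.42.0, RLE factors, no filter, the replicate number as a block, each library left out, doublets kept, resolution 2, clustering without the members, other state limits, states from cells thinned to 3000 UMIs and cells past both limits left out.

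The members and the gene lists were chosen with earlier results of these data known. The genes named are all members, the 3 genes of highest level in each list, list genes called between Sema4d-shRNA and NC, the 3 genes most like a member over class sums, and Sema4d. Rbl2 and Mdm2 were called between states and were picked after their values were seen.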

Additional observations from a re-analysis of the deposited data

How the results depend on the processing

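The number of members called between Sema4d-shRNA and NC tumour-like cells was 0, and 1 with DESeq2, with no filter on low counts and with the replicate number as a block; leaving out 1 library gave 0 to 2. In macrophage-like cells it was 0, and 1 with no filter (0 to 1 with a library left out), and in T and NK-like cells 0 to 1 with a library left out. In cycling cells it was 0, and 1 with DESeq2, with no filter, with limits of 2 and 3 UMIs and with cells past both limits left out (0 to 2 with a library left out). In stress cells it was 0, and 1 with no filter and with the replicate block. In other cells it was 1, and 0 with the replicate block and with limits of 2 and 3 UMIs (0 to 1 with a library left out). The members called between stress and other cells numbered 8, and 4 to 8 with a library left out. The share of all genes called was not counted under the alternatives, so these counts are not read as particular to the members. The causes were not tested. With 1 library in a group, that library is assumed to vary like the other group.

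In tumour-like cells the Sema4d-shRNA log2 fold change of Ccnd1 turned to 0.0070 with no filter. With a library left out it ran from -0.25 to 0.032 for Cdkn2b, -0.046 to 0.42 for Cdkn1a, -0.23 to 0.14 for Cdkn1b, -0.13 to 0.10 for Ccnd1, -0.093 to 0.036 for Ccnd2, -0.28 to 0.090 for Ccnd3 and -0.23 to 0.0071 for Cdk6. Between cycling and other cells Cdkn1b ran from -0.055 to 0.0058, and turned to 0.077 with states from thinned cells, where Cdkn2b between stress and other cells turned to -0.0028. Of all values under alternatives, 379 kept their direction and side of the threshold, 22 became called, 19 lost a call and 12 reversed.

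Replicate numbers were not used to pair libraries in the main tests, since nothing in the labels ties them. The deviations of same-numbered libraries from their group means correlated at 0.0585 in tumour-like, 0.189 in macrophage-like and -0.0291 in T and NK-like cells. With 2 libraries per group, both numbers give the same correlation, so it cannot decide whether a batch was shared by number. Depth limits the values of the rarer classes: their sums per library ran from 747117 to 2881024 UMIs in T and NK-like and from 168451 to 728532 in dendritic-like cells.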
